A study of Mus musculus with 17 samples.

Results

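The 7 genes of the NMDA receptor subunits (Grin1, Grin2a, Grin2b, Grin2c, Grin2d, Grin3a and Grin3b) were followed in neuronal RNA of the mouse cerebral cortex. They were chosen by symbol among the 39017 Ensembl genes of the count table, with no measured value in the rule, and all 7 were among the 22242 genes that passed the count filter. The libraries came from male mice with experimental autoimmune encephalomyelitis (EAE, n = 5), male control mice (NL, n = 4), female mice with EAE (n = 4) and female control mice (n = 4), 1 library per mouse. EAE is an induced model of multiple sclerosis, here raised in adult C57BL/6 mice with a peptide of myelin oligodendrocyte glycoprotein in complete Freund's adjuvant and with pertussis toxin, and studied at its chronic stage. The controls were healthy mice of matched age. All 4 groups carried the NSE-Cre and RiboTag alleles, in which Cre under the promoter of neuron-specific enolase switches Rpl22, a ribosomal protein, to an HA-tagged form, so that RNA bound to tagged ribosomes can be pulled down with an antibody. The study asked whether neurons of the cortex respond to EAE differently in male and female mice.

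NMDA receptors are glutamate-gated cation channels built of 4 subunits, and they open only when glutamate and a co-agonist, glycine or D-serine, are bound together. Each receptor needs GluN1, the product of Grin1, which binds the co-agonist. The glutamate-binding GluN2 subunits, from Grin2a to Grin2d, set how long the channel stays open and how strongly magnesium blocks it. The GluN3 subunits, from Grin3a and Grin3b, bind glycine and lower calcium entry. In the forebrain GluN2B prevails early in life and GluN2A joins it as circuits mature. GluN2C is best known from cerebellar granule cells and is also made by astrocytes, while GluN2D is found in interneurons.

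The library totals were 70613567 to 76768267 counts in male EAE, 85800542 to 98433383 in male control, 66155142 to 86691316 in female EAE and 83664876 to 92822398 in female control mice. The label of the cells, neuron, was checked against marker genes in these libraries. The study itself reported that neuronal genes, but not those of glia, were enriched in the pulled-down RNA. By staining it found HA together with NeuN, and not significantly with parvalbumin or glial markers. It also counted fewer NeuN-positive cells with EAE in both sexes. Rbfox3, which encodes the neuronal protein NeuN, was abundant but lower with EAE. It had 836 to 1161 CPM (counts scaled to the library total) in male EAE and 1270 to 1668 CPM in male control mice, and 774 to 1160 CPM in female EAE and 1196 to 1570 CPM in female control mice, without overlap in either sex. Its log2 difference was -0.58 in males (edgeR adjusted p = 0.00543) and -0.42 in females (edgeR adjusted p = 0.176), and its part in the results for the subunits was not tested. Slc17a7, the glutamate transporter of cortical excitatory neurons, had 1557 to 2134 CPM over the 17 libraries. Genes of other cells were also present, since 10 astrocyte markers summed to 1493 to 3660 CPM and 10 oligodendrocyte markers to 6074 to 9220 CPM, so the values cannot be assigned to neurons alone. In addition, a smaller number of cells of a type and less RNA per cell cannot be told apart in such samples. The libraries also differed in how counts depended on gene length. Each gene's log2 CPM was taken as its deviation from its mean over the 17 libraries, so slopes are relative to the average library. Over 13288 genes the slope of this deviation on log2 exon length was 0.0269 to 0.141 in male EAE and -0.176 to 0.0250 in male control mice. It was -0.0433 to 0.102 in female EAE and -0.120 to -0.0194 in female control mice. Male control replicate 4 and female control replicate 2 had the lowest slopes. Where an offset for gene length changed the call of a gene named here or the counts of a list, the result with the offset is therefore given as well.

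The genes lie on 7 chromosomes of GRCm38 (mm10). Grin1 is on chromosome 2 from 25291181 to 25319187, Grin2a on 16 from 9567898 to 9995560, Grin2b on 6 from 135713233 to 136173511, Grin2c on 11 from 115249169 to 115267243, Grin2d on 7 from 45831883 to 45878378 and Grin3a on 4 from 49661611 to 49845744, all on the minus strand. Grin3b is on the plus strand of chromosome 10 from 79970715 to 79977190. Their annotated exons together cover very different lengths, with 24842 bases for Grin2b, 17933 for Grin2a, 12275 for Grin3a, 9700 for Grin1, 6658 for Grin2d, 5037 for Grin2c and 3296 for Grin3b. The exons of Grin2b were longer than those of 99.8% of the 13288 genes, and those of Grin3b longer than those of 35.8%. Hence the family spans most of the length range over which the libraries differed.

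Promoter sequence is shown for Grin2c and Grin3b, the 2 members that were lower in male EAE mice and whose levels ran together over the libraries. RefSeq promoters were matched for 4 of the 7 genes (Grin1, Grin2c, Grin2d and Grin3b, build GRCm38.p6). Each sequence is the 250 bases before the RefSeq transcription start, read on the strand of the gene, with GC boxes (GGGCGG, either strand) in capitals. That start can differ from the gene limits given above. The Grin3b window ends just inside those limits, and the Grin2d window (45866682 to 45866931) lies wholly within them. The window of Grin2c is chr11:115267244-115267493 on the minus strand and that of Grin3b is chr10:79970474-79970723 on the plus strand.
Grin2c: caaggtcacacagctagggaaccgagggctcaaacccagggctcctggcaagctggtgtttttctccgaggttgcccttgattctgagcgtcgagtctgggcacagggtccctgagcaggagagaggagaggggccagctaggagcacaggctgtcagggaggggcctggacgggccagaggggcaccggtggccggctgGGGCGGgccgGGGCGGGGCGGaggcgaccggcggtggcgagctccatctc
Grin3b: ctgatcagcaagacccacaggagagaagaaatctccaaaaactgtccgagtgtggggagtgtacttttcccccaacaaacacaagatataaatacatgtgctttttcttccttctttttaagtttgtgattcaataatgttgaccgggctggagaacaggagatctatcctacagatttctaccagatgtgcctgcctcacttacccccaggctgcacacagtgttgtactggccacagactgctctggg
The 2 windows differed in base composition, with 68.8% G and C in that of Grin2c and 46% in that of Grin3b. The Grin2c window held 3 GC boxes, of which the last 2 overlap, and that of Grin3b held none. Windows of this length held at least 1 GC box in 32.7% of 32851 mouse promoters. The windows of Grin1 and Grin2d held none, and none of the 4 windows held a cAMP response element (TGACGTCA, in 1.55% of promoters).

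Grin1 had the highest level of the family by these counts and Grin2a by far the lowest. The low count of Grin2a does not show that its RNA was scarce, as set out for that gene below. Levels were compared as CPM per kilobase of annotated exon, with the median over 17 libraries. They were 37.5 for Grin1, 15.9 for Grin2b, 13.0 for Grin2c, 3.28 for Grin2d, 2.19 for Grin3a, 2.13 for Grin3b and 0.0909 for Grin2a. Neighbours in this order were separated in every library except for Grin2b and Grin2c, where Grin2b was higher in 10 of 17, and Grin3a and Grin3b, where Grin3a was higher in 9 of 17. On the scale of the longest coding sequence, Grin2b stood clearly above Grin2c in all 17 libraries, was below Grin1 in 15 of 17, and Grin3a stood above Grin2d in all 17. The order of Grin2b and Grin2c, and of Grin2d and Grin3a, thus rests on the length used.

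**Figure D1:**
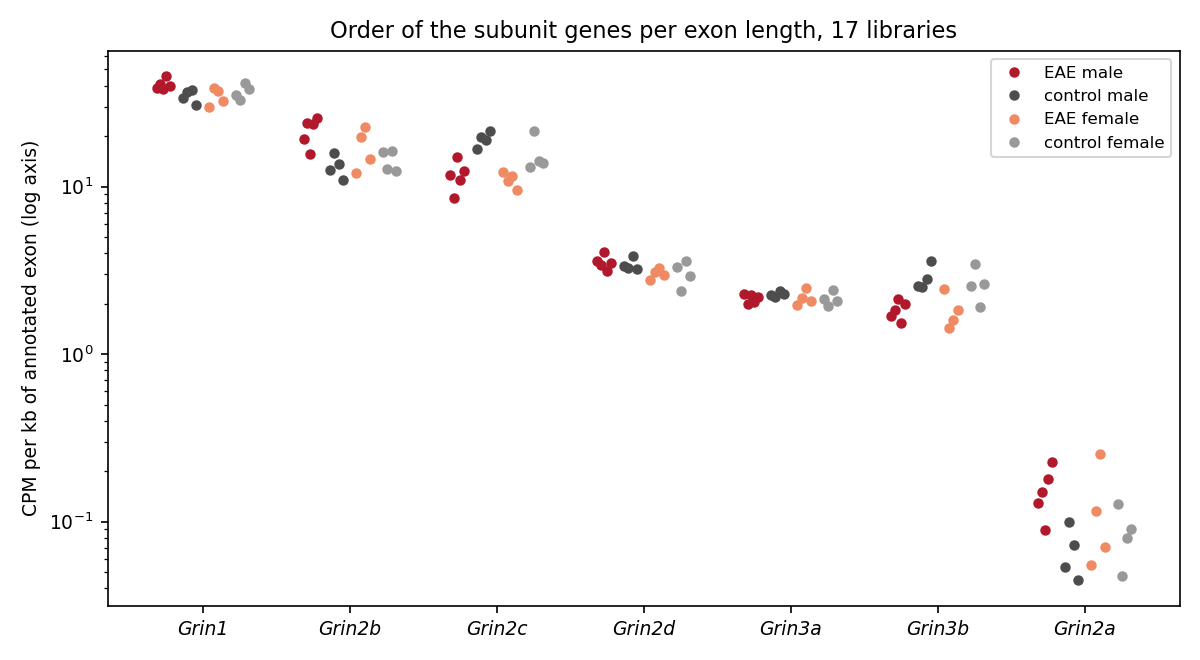
CPM per kilobase of annotated exon (log axis) for the 7 subunit genes, 1 point per library, coloured by group (5 EAE male, 4 control male, 4 EAE female and 4 control female mice). Grin1 is highest, between 29.8 and 45.7, and Grin2a is lowest, between 0.0446 and 0.255. Grin2b and Grin2c overlap and change places between groups. The low count of Grin2a does not show that its RNA was scarce.

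Grin2b made up more of the family, and Grin2c and Grin3b less, in every male EAE mouse than in any male control mouse. For comparison, the CPM of 24.4% of all genes did not overlap between the male groups. Of the summed CPM per exon kilobase, Grin2b made up 26.3 ± 3.92% in male EAE and 17.4 ± 1.88% in male control mice (SD, n = 5 and 4), without overlap between the groups. Grin2c made up 14.4 ± 3.25% in male EAE and 25.4 ± 2.88% in male control mice, again without overlap. Grin3b made up 2.26 ± 0.354% and 3.81 ± 0.811%, also without overlap. The share of Grin1 ranged from 46.5 to 52.4% in male EAE and from 42.5 to 47.4% in male control mice, with overlap. In females Grin2b held 24.3 ± 3.89% in EAE and 19.2 ± 2.51% in control mice, and Grin2c 15.9 ± 2.66% and 20.9 ± 5.24% (SD, n = 4 each). Grin3b held 2.69 ± 0.958% in female EAE and 3.56 ± 0.912% in female control mice, and the groups overlapped for each of these genes. No test was made on these shares, and they carry the length dependence, since no offset was applied to them.

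In male mice 4 of the 7 genes passed the threshold, with Grin2a and Grin2b higher and Grin2c and Grin3b lower in EAE. A gene was called changed at a false discovery rate (FDR) below 0.1 and a log2 fold change beyond 0.25, by edgeR's quasi-likelihood test with p-values adjusted over all genes tested. By this rule 39.6% of all genes were called in male mice, 19.2% higher and 20.4% lower, so a call in males is common. In female mice no member was called, where 0.0584% of all genes were (13 of 22242). At an unadjusted p below 0.05 the test gave 4415 genes in females, or 19.8%, Grin2c and Grin3b among them. In females DESeq2 called 1354 genes (6.09%), the likelihood ratio test of edgeR 639 (2.87%), limma voom 0, and the fit with a surrogate variable 3425 (15.4%). In males the fit with the length offset called 37% of genes and upper quartile scaling 40%. Cell type markers were called with EAE in males as well, where 39.6% of all genes were. Of the markers called, 3 of 10 for excitatory cortical neurons were higher and 1 lower (summed to 9673 to 12113 CPM in male EAE and 11946 to 17309 CPM in male control mice), 4 of 10 for oligodendrocytes were higher, 5 of 10 for striatal projection neurons were higher (summed to 1051 to 2371 CPM in male EAE and 914 to 1982 CPM in male control mice) and 4 of 9 for T and B cells were higher. In the fit with the length offset 4 were higher and 1 lower for excitatory neurons, 5 higher for oligodendrocytes, 6 for striatal neurons and 4 for T and B cells. Oligodendrocyte precursors had 2 of 5 markers higher and 1 lower (0 and 0 with the offset). Endothelium and pericytes had 2 of 8 higher and 1 lower. Thalamic neurons had 0 of 6 higher and 2 lower. Dentate gyrus and hippocampus had 3 of 6 higher and 1 lower (3 and 0 with the offset). Of 10 markers of microglia and macrophages 1 was higher and 0 lower (2 and 0 with the offset). Their part in the results for the subunits was not tested.

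**Figure D2:**
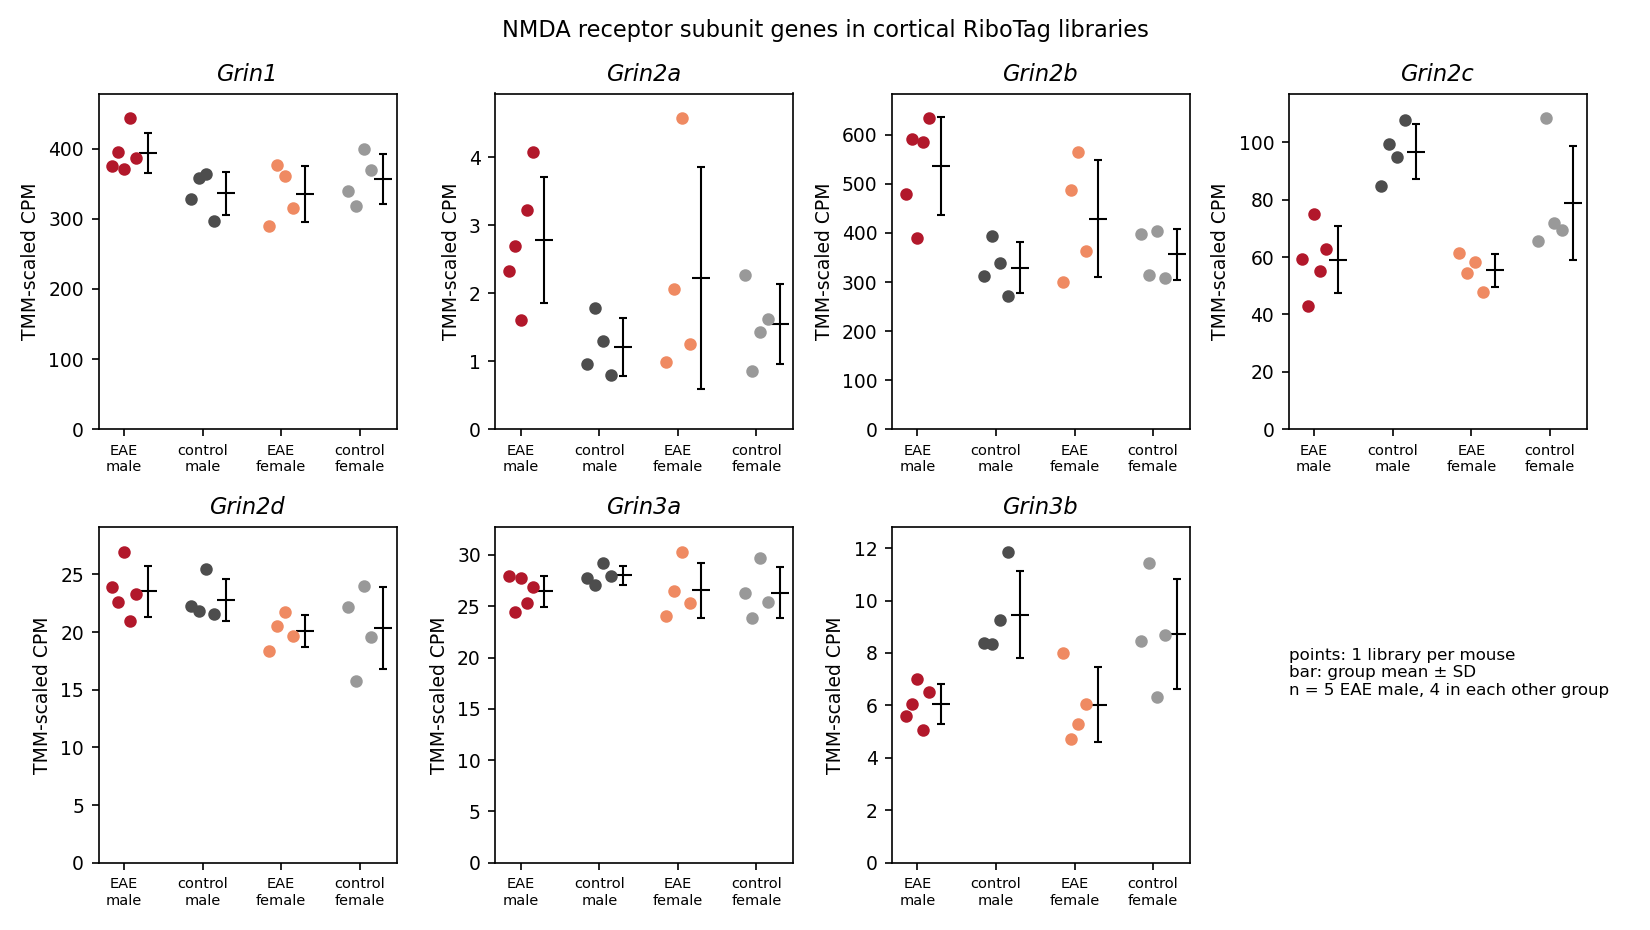
CPM scaled by the TMM method for each subunit gene, 1 point per library, with the group mean and SD beside the points. In male mice all EAE values of Grin1 (371 to 443) lie above the control values and all those of Grin2c (43.0 to 75.1) and Grin3b (5.05 to 7.01) lie below them.

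Grin1, whose product every NMDA receptor contains, did not pass the threshold in either sex. It had 375, 395, 371, 443 and 386 CPM in male EAE mice, against 328, 358, 363 and 297 CPM in male control mice. The lowest EAE library stood just above the highest control, so the groups did not overlap, as was the case for 24.4% of all genes in males. The difference was 0.23 on the log2 scale (SE 0.0956, edgeR adjusted p = 0.0736), which is under the fold threshold, so Grin1 was not called. It passed, at 0.28, with upper quartile scaling and at 0.26 and 0.27 without EAE male replicate 1 or control male replicate 3, and the difference was 0.00 with the offset for gene length. In female mice Grin1 had 289, 376, 361 and 316 CPM in EAE, against 340.3, 318, 400.1 and 369.7 CPM in controls. The groups overlapped, with a difference of -0.09 (SE 0.1005, edgeR adjusted p = 0.634). On the opposite strand the annotated RNA Grin1os shares 13.5% of the exon bases of Grin1. It had 62.5 to 72.9 CPM in male EAE and 54.8 to 63.0 CPM in male control mice, a log2 difference of 0.18. The strand setting of the counting is not given in the sources used here, so reads of the shared bases cannot be assigned to 1 of the genes.

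Grin2b, which encodes the GluN2B subunit that binds the kinase CaMKII, was higher in male EAE mice. It had 479, 592, 391, 586 and 633 CPM in male EAE mice, against 311, 395, 339.6 and 271 CPM in male control mice. Only EAE replicate 3 fell within the control range, just below the highest control. The log2 difference was 0.70 (95% interval 0.34 to 1.07, edgeR adjusted p = 0.00737), a 1.63-fold change. In female mice Grin2b had 299, 488, 566 and 364 CPM in EAE, against 398, 315, 405 and 309 CPM in controls. EAE replicates 3 and 4 stood above all controls and replicate 1 below all of them, and the difference was 0.27 (interval -0.11 to 0.65, edgeR adjusted p = 0.408). With the length offset the male difference was 0.25 (SE 0.106, edgeR adjusted p = 0.0774), just under the fold threshold, and the female one 0.07. Long genes as a whole moved the same way, since the median male log2 difference was -0.31, -0.11, 0.05 and 0.23 over 4 groups of 13288 genes ordered from short to long exons.

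**Figure D3:**
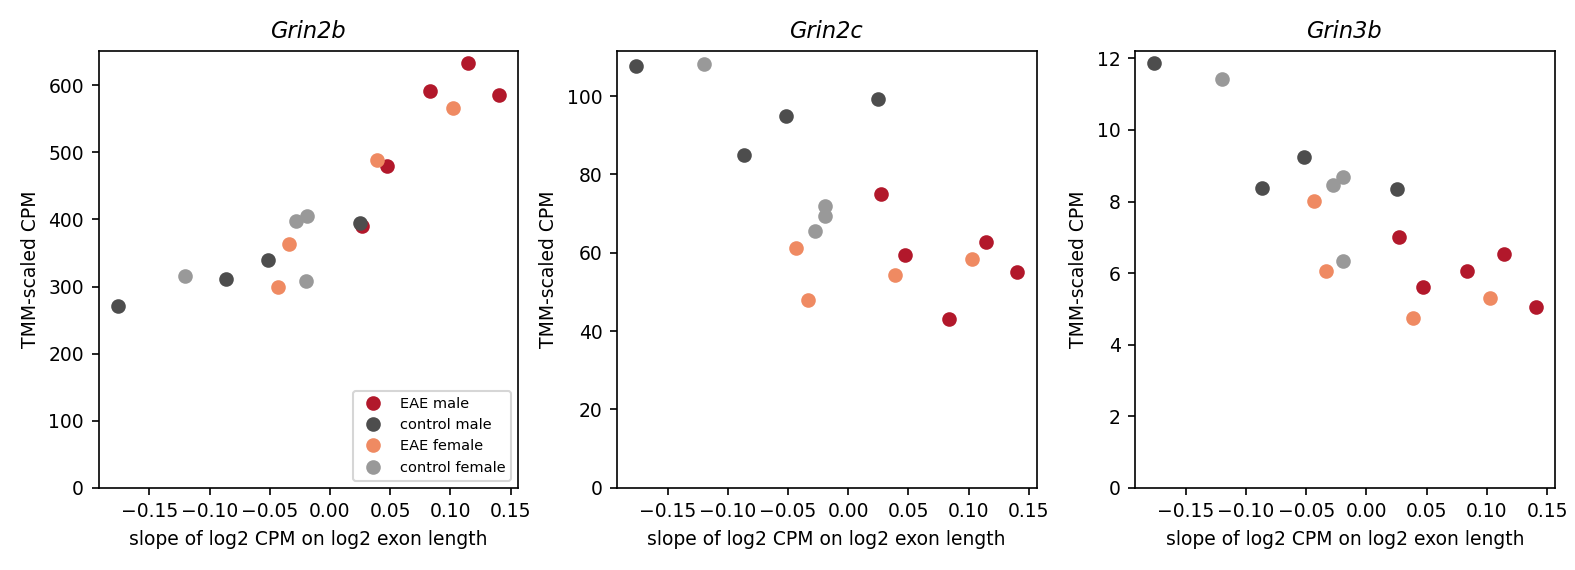
CPM of Grin2b, Grin2c and Grin3b in each library against that library's length slope, coloured by group. The slope is that of log2 CPM, as the deviation from the gene's mean over the libraries, on log2 exon length. Libraries with a higher slope had more Grin2b and less Grin3b, with the male EAE libraries at slopes of 0.0269 to 0.141 and the lowest slope, -0.176, in a male control library. The male EAE library with the lowest slope (0.0269) had 391 CPM of Grin2b, 75.1 CPM of Grin2c and 7.01 CPM of Grin3b. The male control library with the highest slope (0.0250) had 395, 99.3 and 8.34 CPM. Female control replicate 3, at a slope of -0.0194, had 405, 72.0 and 6.33 CPM. The part of the length dependence in these values was not tested.

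Grin2a, which encodes the GluN2A subunit of mature synapses, was higher in male EAE mice at a very low count. It had 2.33, 2.70, 1.61, 3.22 and 4.08 CPM in male EAE mice, against 0.958, 1.78, 1.30 and 0.801 CPM in male control mice. Again EAE replicate 3 alone fell within the control range. The log2 difference was 1.20 (interval 0.37 to 2.03, edgeR adjusted p = 0.0269), and 0.84 with the length offset (edgeR adjusted p = 0.0543), past the threshold in both fits. In female mice Grin2a had 0.997, 2.06, 4.58 and 1.26 CPM in EAE, against 2.27, 0.850, 1.43 and 1.63 CPM in controls. The groups overlapped, with a difference of 0.53 (interval -0.32 to 1.39, edgeR adjusted p = 0.464). That difference was -0.12 without EAE female replicate 4, the library with the highest value. These values rest on 63 to 410 counts per library. A low count in this table does not show that the RNA was scarce, since Gapdh, a glycolytic enzyme found in nearly all cells, had 48 to 128 counts. Of the 50-base stretches of their transcripts, 11.6% for Grin2a and 25.1% for Gapdh also occur in another gene's transcripts. The share was 23.6% for Grin3b, with 330 to 933 counts, and 8.24% for Grin1, with 19732 to 35200 counts. It was 7.57% for Grin2d, 0.882% for Grin2c, 0.543% for Grin2b and 0% for Grin3a. The part of such sharing in the low counts was not tested.

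Grin2c, which encodes the GluN2C subunit of cerebellar granule cells and astrocytes, was lower in male EAE mice. It had 59.4, 43.0, 75.1, 55.1 and 62.7 CPM in male EAE mice, against 84.9, 99.3, 94.9 and 108 CPM in male control mice. The groups did not overlap. The log2 difference was -0.71 (interval -1.03 to -0.39, edgeR adjusted p = 0.00541), and -0.74 with the length offset. In female mice Grin2c had 61.3, 54.3, 58.3 and 47.9 CPM in EAE, against 65.6, 108, 72.0 and 69.4 CPM in controls. These groups did not overlap either, as for 7.43% of all genes in females. The female difference was -0.51 (interval -0.84 to -0.17) and missed the threshold over all genes (edgeR adjusted p = 0.176). It passed with DESeq2 (adjusted p = 0.0683), with edgeR's likelihood ratio test (adjusted p = 0.0959) and with a surrogate variable (adjusted p = 0.0402), and was -0.32 without control female replicate 2, whose value was the highest of its group.

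The astrocyte markers that passed the test moved in the same direction as Grin2c. Of 10 astrocyte markers 0 were higher and 8 were lower in male EAE mice, with a median log2 difference of -0.61 against 0.02 over all genes, and 9 were lower with the length offset. They summed to 1493 to 2153 CPM in male EAE and 2429 to 3660 CPM in male control mice. In females 0 of the 10 were called, with a median of -0.49, and the sums were 1634 to 2312 CPM in EAE and 1863 to 3330 CPM in control mice. The gene Fgfr3, a receptor on that list, was among the 3 whose level was most like that of Grin2c over the libraries. Of 8 cerebellar markers Gabra6 and Fat2 did not pass the count filter, while Cbln3 had a median of 0.600 CPM, Zic1 of 4.03 CPM and Cbln1 of 22.0 CPM. In males 0 of them were higher and 1 was lower, and in females En2, at a median of 1.05 CPM, was called higher by 0.92 (edgeR adjusted p = 0.0813). The part of astrocyte RNA in the Grin2c difference was not tested.

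**Figure D4:**
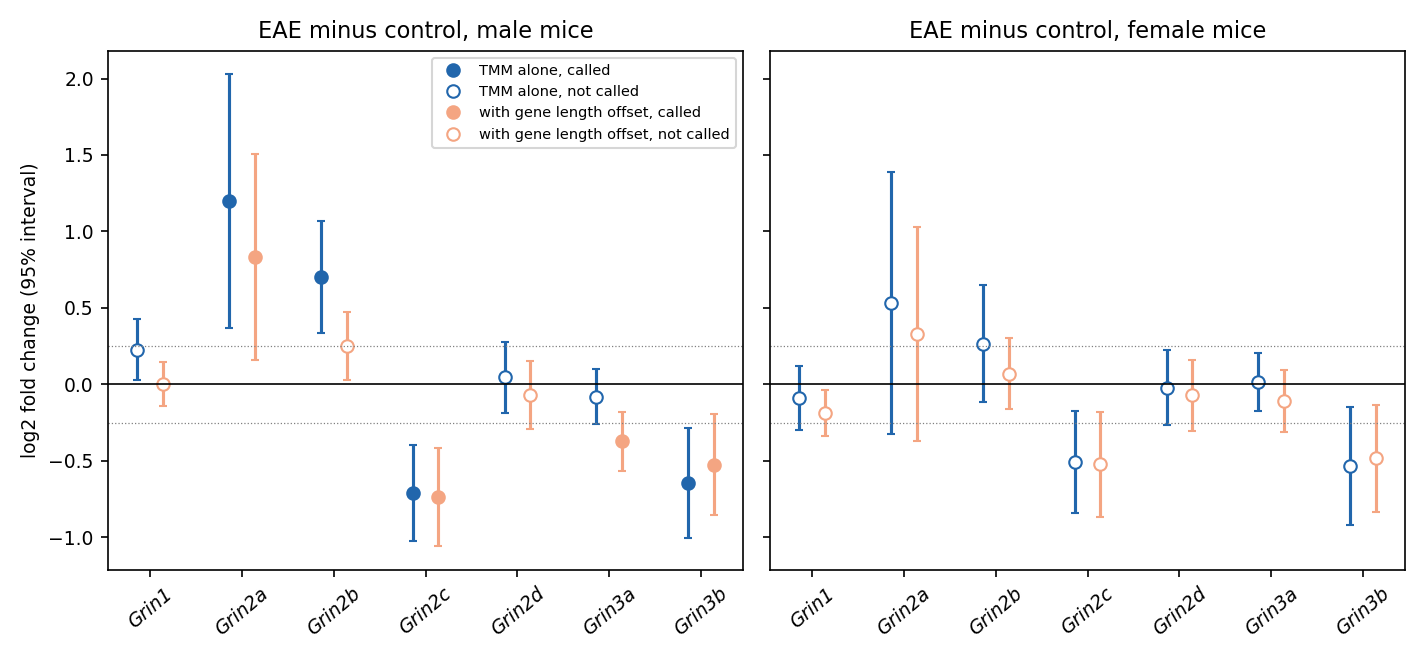
Log2 fold change of EAE over control with its 95% interval for each subunit gene, in male mice (left) and female mice (right), from the fit with TMM scaling alone and the fit with an offset for gene length. Filled points passed the threshold and dotted lines mark a log2 fold change of 0.25. The male difference of Grin2b is 0.70 with TMM alone and 0.25 with the offset, while that of Grin2c is -0.71 and -0.74.

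Grin2d, the GluN2D subunit of interneurons, showed no detectable difference. It ranged from 20.9 to 26.9 CPM in male EAE and from 21.6 to 25.5 CPM in male control mice, a log2 difference of 0.05 (interval -0.18 to 0.28, edgeR adjusted p = 0.783). The ranges were 18.4 to 21.7 CPM in female EAE and 15.8 to 23.9 CPM in female control mice, with a difference of -0.02 (interval -0.27 to 0.22). Of 10 markers of interneurons 5 were higher and 3 lower in male EAE mice. Gad2, which makes the transmitter GABA, rose by 0.74 and Pvalb, a calcium buffer of fast-spiking interneurons, fell by 0.74. With the length offset 5 were higher and 1 lower, with Pvalb at -0.41 and with the neuropeptide genes Sst and Npy no longer called. Without both control libraries of lowest slope 3 were higher and 1 lower. That fit called 6463 of 22291 genes in males, against 8813 of 22242 with all libraries.

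Of the glycine-binding subunits, Grin3b was lower in male EAE mice and Grin3a was not called, whereas with the length offset both were called lower. Grin3a ranged from 24.4 to 27.9 CPM in male EAE and from 27.0 to 29.2 CPM in male control mice, with a log2 difference of -0.08 (interval -0.26 to 0.10, edgeR adjusted p = 0.494). With the length offset it was -0.37 and passed the threshold (edgeR adjusted p = 0.00823). In females the ranges were 24.1 to 30.3 CPM in EAE and 23.8 to 29.8 CPM in control mice, and the difference was 0.01 (interval -0.18 to 0.20). Grin3b had 5.60, 6.07, 7.01, 5.05 and 6.53 CPM in male EAE mice, against 8.37, 8.34, 9.26 and 11.9 CPM in male control mice, and the groups did not overlap. The difference was -0.64 (interval -1.004 to -0.28, edgeR adjusted p = 0.00992), and -0.53 with the length offset. In female mice Grin3b had 8.02, 4.73, 5.30 and 6.05 CPM in EAE, against 8.46, 11.4, 6.33 and 8.68 CPM in controls. Here EAE replicate 1 lay within the control range, and the difference of -0.53 missed the threshold (interval -0.92 to -0.15, edgeR adjusted p = 0.184). It passed with DESeq2 (adjusted p = 0.0801) and with a surrogate variable (adjusted p = 0.0347).

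Grin3b overlaps a gene of higher count. Tmem259, which encodes a membrane protein, runs on the opposite strand and shares 32.1% of the exon bases of Grin3b. It had 115 to 141 CPM in male EAE and 143 to 173 CPM in male control mice, a log2 difference of -0.31 (edgeR adjusted p = 0.0110). In females it had 111 to 129 CPM in EAE and 139.5 to 168 CPM in control mice, a difference of -0.31. Without the strand setting, counts of the shared bases cannot be told apart, and the part of Tmem259 reads in Grin3b was not tested.

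The response to EAE was not shown to differ between male and female mice for any of the 7 genes. The test of the male minus the female response called 0 of 22242 genes (0%), with 933 (4.19%) at an unadjusted p below 0.05, and DESeq2 called 3. The point estimate was 0.32 for Grin1 (interval 0.03 to 0.61, edgeR adjusted p = 0.807), where the difference was 0.23 in males and -0.09 in females. For Grin2b it was 0.44 (interval -0.09 to 0.96, edgeR adjusted p = 0.807) and for Grin2a 0.66 (interval -0.52 to 1.85). Grin2c and Grin3b had the same direction in both sexes, with differences between the sexes of -0.20 (interval -0.67 to 0.26) and -0.11 (interval -0.64 to 0.42). Without EAE female replicate 4 the estimate was 1.31 for Grin2a (interval 0.30 to 2.32) and 0.61 for Grin2b (interval 0.10 to 1.12), neither of them called (edgeR adjusted p = 0.498 each). In the fit on all libraries each of the 5 intervals given here was wider than the larger of the responses in the 2 sexes.

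Male and female control mice were also compared, and no member was called, where 0.0674% of all genes were (15 of 22242). The log2 difference, male minus female, was 0.29 for Grin2c, with 96.7 ± 9.52 CPM in male and 78.8 ± 19.8 CPM in female controls (SD, n = 4 each), with an interval of -0.04 to 0.63. The values of male and female controls overlapped for all 7 genes, whereas they did not for 2.41% of all genes. For Grin2a the difference was -0.35 with an interval of -1.22 to 0.52.

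The ratio of 2 subunit genes within a library does not depend on how libraries are scaled. The log2 ratio of Grin2b to Grin1 counts was 0.35, 0.58, 0.08, 0.40 and 0.71 in male EAE mice, against -0.07, 0.14, -0.10 and -0.14 in male control mice. EAE replicate 3 again lay within the control range. The difference of means was 0.47 (exact permutation test, two-sided, p = 0.0317, adjusted over the 3 ratios and 2 sexes p = 0.0635). The same test gave a difference of 0.51 for Grin2a to Grin2b and 0.97 for Grin2a to Grin1 in males, each with the same exact p of 0.0317 and adjusted p of 0.0635, where 5 mice against 4 cannot go below 0.0159. Without 1 mouse in turn the exact p of the 3 male ratios ranged up to 0.0714. In females the differences were 0.33 for Grin2b to Grin1 (exact p = 0.0857), 0.12 for Grin2a to Grin2b (exact p = 0.857) and 0.44 for Grin2a to Grin1 (exact p = 0.486). A difference between genes of unequal length within a library still carries the length dependence described above.

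**Figure D5:**
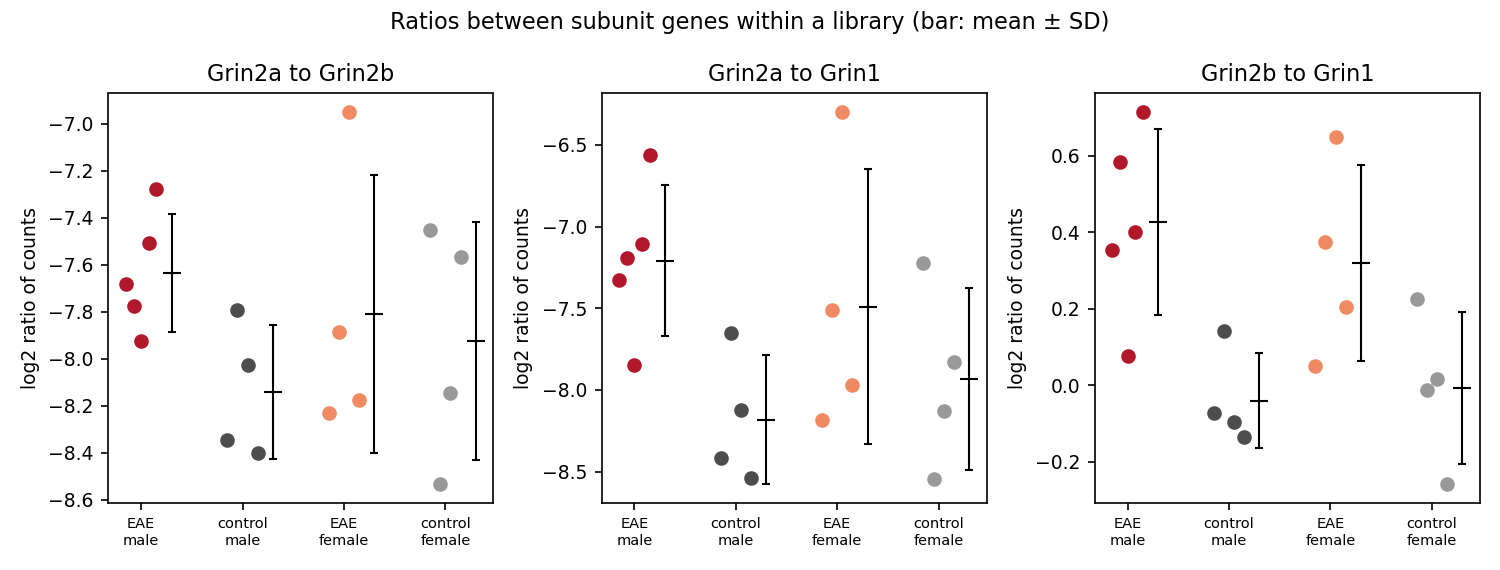
Log2 ratio of counts between pairs of subunit genes in each library, with the group mean and SD beside the points. In male mice the ratio of Grin2b to Grin1 was 0.08 to 0.71 in EAE and -0.14 to 0.14 in controls, and the ratios of Grin2a lie between -8.54 and -6.56.

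The genes most like each member over the 17 libraries were found by the Pearson correlation of log2 CPM among 13470 genes, as a description with no test, since the libraries share their group and their length dependence. Grin2b was most like Aplp2 (r = 0.97), Scn2a and Tm9sf3 (r = 0.96 each), of which Scn2a encodes a sodium channel of excitatory neurons and Aplp2 a homologue of the amyloid precursor protein. Grin1 was most like Mast3 (r = 0.95), a kinase, Clstn3 (r = 0.94), a synaptic adhesion protein, and Crebbp (r = 0.93), a histone acetyltransferase. Grin2c was most like Anks1 (r = 0.97), Appl2 and Fgfr3 (r = 0.96 each). Grin3b was most like Tuba1b, a tubulin, Coq9, which serves coenzyme Q synthesis, and the annotated gene Gm16062 (r = 0.97 each), all 3 with shorter exons than Grin3b. For Grin2d and Grin3a the closest genes were Txlna (r = 0.86) and Trmt44 (r = 0.81). Among the members, Grin2b ran with Grin1 (r = 0.76) and against Grin3b (r = -0.80), and Grin2c ran with Grin3b (r = 0.82).

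The AMPA and kainate receptor subunits, the other ionotropic glutamate receptors, were set beside them. All 4 AMPA genes were called higher in male EAE mice, with a median log2 difference of 0.62 against 0.05 for the 7 NMDA genes and 0.02 for all genes. Gria3 rose by 0.82, Gria4 by 0.71 and Gria1 by 0.53. With the length offset 3 of the 4 were called, with a median of 0.52 against -0.07 for the NMDA genes and 0.09 for all genes. Of the 5 kainate genes Grik3 and Grik2 rose by 0.65 each and Grik5 fell by 0.26. With DESeq2, and without both control libraries of lowest slope, 3 of the 5 were called higher and 0 lower. Over all genes 39.6% were called in males, 19.2% higher and 20.4% lower. In females 0 of these 9 genes were called, and the medians were 0.28 for the AMPA and -0.06 for the kainate genes.

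Of 13 genes of co-agonist supply and breakdown 0 were higher and 5 lower in male EAE mice, with a median of -0.21. Over all genes 39.6% were called, 19.2% higher and 20.4% lower. The falls covered Phgdh, Psat1 and Psph, which make L-serine, the source of D-serine, and Gldc, which breaks glycine down, besides Shmt2. Phgdh had 7.80 ± 1.31 CPM in male EAE and 16.7 ± 4.33 CPM in male control mice (SD, n = 5 and 4), and fell by 1.10 on the log2 scale. Gldc fell by 0.93 and Psat1 by 0.72. Astrocyte markers were lower in the same mice, as given above, and the part of astrocyte RNA in these falls was not tested. Of 10 genes of glutamate supply and clearance 6 were higher and 2 lower, with a median of 0.52. Slc17a6, which loads glutamate into vesicles, rose by 0.84, and the glutamine transporters Slc38a1 and Slc38a2 by 0.79 and 0.71. The fit with the length offset called 5 of the 10 higher and 3 lower, with a median of 0.29 against 0.09 for all genes. In that fit the difference of Slc38a1 was 0.43. Glul, the glutamine synthetase of astrocytes, fell by 0.87 and the astrocyte glutamate transporter Slc1a3 by 0.37, beside the fall of the astrocyte markers given above, a list on which Slc1a3 itself stands. No gene of either list was called in females, where the medians were -0.29 and 0.37.

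Of 17 scaffolds and auxiliary proteins of the postsynaptic density 10 were higher and 0 lower in male EAE mice, with a median of 0.54. With the length offset 7 were higher and 1 lower, with a median of 0.32 against 0.09 for all genes. Without both control libraries of lowest slope 7 were higher and 0 lower. That fit called 6463 of 22291 genes in males, against 8813 of 22242 with all libraries. Lrrc7, which encodes densin, rose by 1.34, with 11.01 ± 2.59 CPM in male EAE and 4.35 ± 1.83 CPM in male control mice (SD, n = 5 and 4). Shank1, which links receptor complexes to the cytoskeleton, rose by 0.92, and Dlg2, which encodes the anchor PSD-93, by 0.89, though Dlg2 was not called with the length offset. Among 14 genes of receptor transport 2 were higher and 3 lower, where 19.2% of all genes were higher and 20.4% lower. Those called were Vps35 of the retromer, up by 0.43, Apba1, up by 0.42, Lin7b, down by 0.60, Gipc1, down by 0.48, and the adaptor subunit Ap2m1, down by 0.39. With the offset Vps35 and Gipc1 were not called, and 2 genes were higher and 2 lower.

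Kinases and phosphatases that act on the receptor were called in both directions. Of 22 genes 8 were higher and 2 lower, with a median of 0.03, close to that of all genes. Over all genes 19.2% were higher and 20.4% lower. Prkca, a protein kinase C, rose by 0.90, the phosphatase subunit Ppp1cb by 0.59 and Camk2a by 0.52, while Ppp1ca fell by 0.42 and Cdk5 by 0.37. The length offset left 4 higher and 1 lower, with a median of -0.11 against 0.09 for all genes, and Camk2a, Ppp1ca and Cdk5 were not called. Downstream of the receptor 8 of 17 genes were higher and 2 lower. Rasgrf2, an activator of Ras, rose by 0.59 and Nos1ap, an adaptor of neuronal nitric oxide synthase, by 0.54, while Mapk3 fell by 0.50 and the calmodulin gene Calm3 by 0.27. With the offset Rasgrf2 and Calm3 were not called, and 4 genes were higher and 1 lower.

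Genes induced by neuronal activity were mostly lower in male EAE mice where they passed the test. Of 13 genes 2 were higher and 6 lower, with a median of -0.55, where 19.2% of all genes were higher and 20.4% lower. They summed to 1143 to 2137 CPM in male EAE and 1805 to 2456 CPM in male control mice. In females the sums were 1113 to 1659 CPM in EAE and 889 to 1334 CPM in control mice. The male controls thus lay above both female groups, while the male EAE mice overlapped with both. What set the male controls apart was not tested. Fos had 31.9 ± 13.7 CPM in male EAE and 66.1 ± 21.4 CPM in male control mice (SD, n = 5 and 4) and fell by 1.05. Egr2 fell by 0.93 and Egr4 by 0.79, whereas Egr3 rose by 0.80 and Homer1, of which a short form is induced by activity, by 0.54. In the fit with the length offset 1 was higher and 5 lower, and Egr2 and Homer1 were not called. In females no gene of this list or of the scaffold, transport, kinase and downstream lists was called, and the median of the activity genes was 0.34.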

How the data were processed

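RNA pulled down with HA-tagged ribosomes from the cortex was measured in 17 mice. The authors enriched polyA RNA, prepared KAPA stranded libraries, demultiplexed reads with bcl2fastq 2.17, checked and trimmed them with FastQC and Trimmomatic, and used QuasR to align them to mm10 and to count reads at the level of Ensembl genes. The deposited values are raw counts. The annotation release and the strand setting of the counting are not given in the sources used here, nor is the batch of a library.

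Genes with a count under 1 in most libraries were left out. The remaining 22242 were fitted with edgeR 4.0.16 (1 mean per group, TMM scaling, quasi-likelihood F test), in R 4.3.3. Standard errors and 95% intervals were derived from the F statistic. The p-values were adjusted by Benjamini-Hochberg over all genes. Each test sets a group difference against the spread between mice, estimated over the 4 groups together and shared in part across genes. It cannot separate EAE from other features that differ with it, such as the library totals of the male groups. CPM values are TMM-scaled. Exon lengths, overlaps and coordinates came from GENCODE M21 (GRCm38), with 37607 of 39017 identifiers matched to symbols. The length offset was a smooth fit, on log2 exon length, of each library's deviation of log2 CPM from the gene mean, for the 21799 genes with a length. The ratios were tested with scipy 1.17.1. The fits were tested on simulated data with known fold changes.

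The alternatives were DESeq2 1.42.0, edgeR's likelihood ratio test, limma voom 3.58.1, RLE and upper quartile scaling, other filters, the length offset, a surrogate variable (sva 3.50.0), a replicate block, each sex alone, and the libraries left out in turn. Male control replicate 4 and female control replicate 2, which stood apart, were also left out together. The members and gene lists were chosen with earlier results of these data known. The text names all 7 members, for each pathway list up to 3 called genes in each direction with the largest change (others only as list members), and for each member with a mean log2 CPM above 1 the 3 genes most correlated with it. The result of 1 gene that this rule names is not reported here. The columns hold each sample's counts, and no column was left unused.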

Additional observations from a re-analysis of the deposited data

Results flagged for a closer look

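Grin2c in female control mice had 1 library far from the others. Replicate 2 had 108 CPM, against 65.6 to 72.0 CPM in the other 3 mice, and the gap to the nearest was 0.850 of the range of the group, above the limit set for 4 samples. This was the only one of 40 groups of values (members, ratios and groups) to stand out in this way, and chance alone gives about 1 in 20. The same library had the highest Grin3b value of its group, 11.4 CPM, and the lowest length slope, -0.120. Without it, Grin2c had a female log2 difference of -0.32 in place of -0.51.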

How the results depend on the processing

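In male mice Grin2a, Grin2b, Grin2c and Grin3b kept their direction and call under every alternative and without any 1 of the 17 libraries, except Grin2b with the length offset (0.25, not called) and Grin2a under the filter on a mean log2 CPM above 1, which leaves it out. Both lowered the number of members called higher to 1. Without 1 library the range was 0.63 to 0.80 for Grin2b and -0.81 to -0.63 for Grin2c. The number of genes called in males was 8813, against 5711 with a surrogate variable and 5895 to 9748 without 1 library. In females 0 members were called higher, and 2 lower with DESeq2 and with the surrogate variable (Grin2c and Grin3b) and 1 with edgeR's likelihood ratio test (Grin2c), where these called 6.09%, 15.4% and 2.87% of genes. All genes called in females numbered 13, against 1354 with DESeq2, 639 with the likelihood ratio test, 0 with limma voom, 28 without a filter, 0 under the filter on mean log2 CPM, 23 with the length offset, 3425 with the surrogate variable, 36 with females fitted alone, 0 without both outlying controls and 0 to 177 without 1 library. The cause of these differences was not tested.

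Estimates near 0 changed sign. Male Grin2d was -0.069 with the length offset, -0.020 with the surrogate variable and -0.0067 to 0.11 without 1 library. Female Grin2d was 0.0052 with upper quartile scaling and -0.13 to 0.065 without 1 library. Female Grin3a was -0.11 with the length offset, -0.0022 with the surrogate variable, -0.0075 with the replicate block, -0.034 without both outlying controls and -0.076 to 0.076 without 1 library. Female Grin2a was -0.12 to 0.78 without 1 library. For Grin3b the male minus female response was 0.029 with the surrogate variable and -0.27 to 0.064 without 1 library, and the male minus female control difference -0.017 to 0.27. The log2 ratios in males without 1 library were 0.42 to 0.62 for Grin2a to Grin2b, 0.81 to 1.15 for Grin2a to Grin1 and 0.39 to 0.55 for Grin2b to Grin1, with exact p from 0.0286 to 0.0714. In females Grin2a to Grin2b was -0.17 to 0.27. A pseudocount of 1 changed no call of a ratio, and division by gene length leaves these differences as they are by construction. The deviations of same-numbered EAE and control mice correlated at -0.02, 0.13, -0.28 and -0.57 in males and at -0.37, 0.39 and 0.53 in females, so not every pair deviated together and the numbers were not taken to pair the mice. The replicate block gave 7871 called genes in males and 18 in females, with the same calls of members. Grin2a rests on the fewest counts of the members, 63 to 410 per library, and its counting error was not compared with the spread between mice.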
